A study of Oncorhynchus mykiss with 6 samples.

Results

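In the liver of heat-stressed rainbow trout (Oncorhynchus mykiss), ribosome footprints on the Hsp110-type chaperone gene Hspa4 reached 890 ± 150 FPKM, against 19.3 ± 5.30 FPKM in control liver (SD, n = 3 each), and overtook those on the Hsc70 gene hspa8b. Footprints are the short mRNA pieces that a translating ribosome shields from nuclease, and FPKM is their number scaled to gene length and library depth. Described here are the entries of the authors' table whose symbol, in upper or lower case, is hspa8b, hsc70 or hspa4. Entries were taken by symbol alone, but the symbols were picked with earlier results of these data known. Of the 1213 listed genes 5 qualified, with 1 entry for hspa8b, 1 for hsc70 and 3 for hspa4. One of the hspa4 entries is written Hspa4. The others are written HSPA4 and are called HSPA4 abundant and HSPA4 scarce here, after their levels. Unlike Hspa4, both stayed below hspa8b in every library.

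The study compared 3 libraries of a heat stress group, kept at 24 °C for 8 h, with 3 libraries of a control group. The sample labels and the design text put the control group at 18 °C, whereas the treatment protocol names 20 °C. No strain, age, sex or genotype of the fish is given in the labels, which word the treatment as applied to the liver. Nothing in them ties a library to a fish, so the p-values below reflect variation among libraries that could be technical. The listed genes held 438701 to 863769 footprints in the heat stress libraries and 362308 to 503370 in the control libraries. The 1213 genes were all listed because the authors had found them changed in this same contrast, at an FDR under 0.05 and at least 2-fold. A rise of a listed gene is thus partly fixed by the listing, and sizes of selected changes tend to be too large. Of 10 hepatocyte marker names searched for, 5 had an entry, with 8 entries after 1 with identical counts was dropped. Of these, 6 (albumin, apolipoprotein A-I, retinol-binding protein 4 and 1 of 2 complement C3 entries) were lower in heat stress, and 2 (fibrinogen alpha and the other C3 entry) were higher. With libraries scaled by TMM instead, the log2 fold change of fibrinogen alpha (fga) was -0.03. Their summed level was 11305 to 17889 FPKM in heat stress and 31870 to 32892 FPKM in control libraries. The marker names of red cells, leukocytes, endothelium and cholangiocytes had no listed entry, and 1 of 4 stellate cell or fibroblast names had one, at 26.91 to 29.99 FPKM in heat stress and 57.4 to 70.4 FPKM in control. The part of these shifts in the results below was not tested. In whole liver, fewer cells of a type and less RNA per cell cannot be told apart, and footprints follow mRNA amount as well as translation.

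Hsp70 proteins bind unfolded stretches of other proteins and release them in a cycle driven by ATP. J-domain proteins (Hsp40) start the ATP step, and nucleotide exchange factors end it by removing ADP. Hsc70, encoded by HSPA8 in mammals, is the form that cells make without stress, and it serves in folding of new proteins, in removal of clathrin coats and in targeting of proteins to lysosomes. HSPA4 belongs to the Hsp110 branch of the family, whose members in mammals and yeast act as nucleotide exchange factors of Hsp70 and join it in loosening protein aggregates. Salmonid genomes went through a further whole-genome duplication, so most of these genes exist as several similar copies. Footprints of near-identical copies can be split between them in counting, and how the authors assigned such footprints is not given in the sources used here.

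All 5 entries were higher in heat stress, and all 5 rose by limma-voom, a linear model on log counts that is fitted here across the listed genes (adjusted p under 0.05). Of the 1152 listed genes with enough footprints to be tested, 71.3% rose by the same rule, so this count says little about the members. HSPA4 scarce had enough footprints for the test only through its heat stress libraries, so its rise was partly fixed by that filter too. The groups overlapped in none of the 5 entries, and 75.5% of listed genes were higher in heat stress without overlap. The median log2 fold change of the 5 was 3.79, beside 1.66 over all tested genes. Counted by their log2 fold change, Hspa4 exceeded 98.0% of tested genes, HSPA4 scarce 92.8%, HSPA4 abundant 92.5%, hsc70 87.8% and hspa8b 85.9%. The tested genes include those that fell, and the place of HSPA4 scarce is uncertain, with a log2 fold change of 3.83 ± 0.76 (SE).

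**Figure D1:**
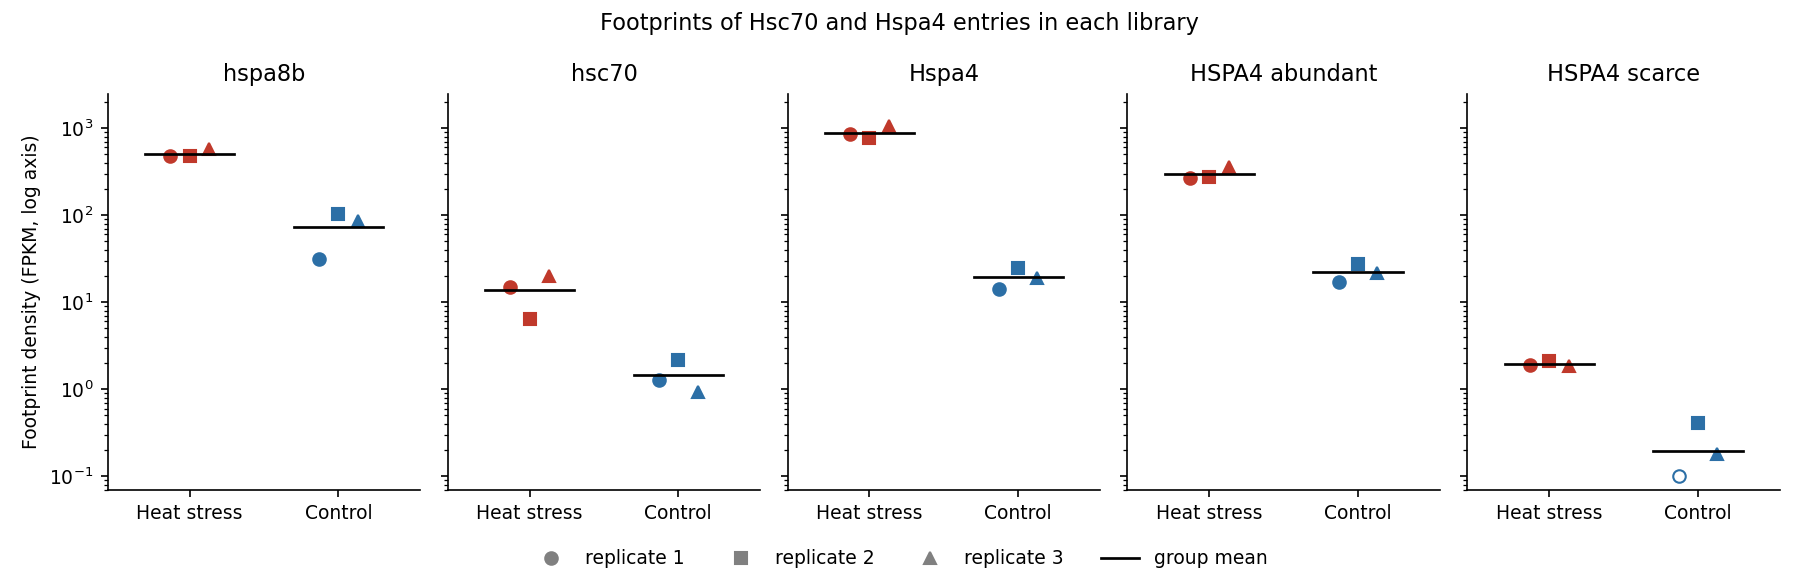
FPKM (log axis) of the 5 entries in each library, with heat stress in red and control in blue, 1 symbol per replicate and the arithmetic group mean as a bar. Every heat stress value lies above every control value, hspa8b has its low control value in replicate 1 (31.1 FPKM), and the open symbol at the bottom of the last panel is a library listed at 0.

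The Hsc70 gene hspa8b carried 4754, 2789 and 6555 footprints in heat stress replicates 1, 2 and 3, and 432, 1088 and 789 in control replicates 1, 2 and 3. Per length and depth these were 474, 485 and 575 FPKM in heat stress, against 31.1, 102 and 86.6 FPKM in control. Heat stress libraries were close to each other, whereas control replicate 1 stood well below the other controls, and the highest control was 3.30 times the lowest. The coefficient of variation was 10.9% in heat stress and 51.1% in control. Among the 395 listed genes with at least 10 FPKM on average in control, 98.0% had a smaller control coefficient of variation than hspa8b. Group means were 511 ± 55.5 FPKM in heat stress and 73.3 ± 37.4 FPKM in control (SD, n = 3 each), a ratio of 6.97. The log2 fold change was 2.97 ± 0.38 (SE, 95% interval 2.12 to 3.81; limma-voom adjusted p = 0.00153). Without control replicate 1 it was 2.43 (limma-voom adjusted p = 0.00101). The authors' deposited table gives an FDR of 3.36e-15 for this entry. It comes from the authors' own test of the same libraries, by which the entry was listed, so it is not independent support.

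The entry hsc70 bears the name of the constitutive protein but was scarce in these livers. It held 150, 37 and 231 footprints in the heat stress libraries, and 18, 23 and 8 in the control libraries. As densities these were 14.97, 6.41 and 20.2 FPKM in heat stress, against 1.26, 2.15 and 0.93 FPKM in control. The groups did not overlap, and heat stress replicate 2 was low, at less than the others by a factor of up to 3.16. The mean of 1.45 ± 0.631 FPKM in control lay far under that of hspa8b. In heat stress the mean was 13.9 ± 6.98 FPKM (SD, n = 3). The log2 fold change of hsc70 was 3.20 ± 0.54 (SE; limma-voom adjusted p = 0.00730). Leaving out control replicate 1 ended this call (limma-voom adjusted p = 0.0605).

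Hspa4, the most abundant of the 3 hspa4 entries in heat stress, had 11067, 5685 and 15571 footprints in heat stress libraries and 256, 341 and 223 in control libraries. Its densities were 852, 763 and 1055 FPKM in heat stress, against 14.2, 24.8 and 18.9 FPKM in control. Even the lowest heat stress library was 30.8 times the highest control library. The ratio of the group means was 46.1, and the log2 fold change was 5.55 ± 0.25 (SE, 95% interval 4.995 to 6.10; limma-voom adjusted p = 1.58e-06). It stands at position 6 of the authors' deposited table, which is ordered by p-value. The exponent of its p-value lost a digit in the file and is not given here.

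HSPA4 abundant was the second hspa4 entry. It had 3485, 2057 and 5247 footprints in heat stress and 303, 374 and 257 in control. This gave 269, 277 and 356 FPKM in heat stress libraries and 16.9, 27.2 and 21.8 FPKM in control libraries. The groups were far apart, with the lowest heat stress library at 9.87 times the highest control library. Group means were 301 ± 48.4 and 22.0 ± 5.19 FPKM in heat stress and control (SD, n = 3 each). The log2 fold change of HSPA4 abundant was 3.79 ± 0.24 (SE, 95% interval 3.26 to 4.31; limma-voom adjusted p = 1.33e-05).

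HSPA4 scarce had 25, 16 and 28 footprints in heat stress and 0, 6 and 2 in control. Its densities were 1.91, 2.12 and 1.85 FPKM in heat stress, against 0, 0.41 and 0.18 FPKM in control. With 69 footprints over the heat stress group and 8 over the control group, counting limits the precision of this entry. Its heat stress libraries were the closest together of the 5 entries, with a coefficient of variation of 7.23%. On counts of 16 to 28 this closeness does not show precision. The log2 fold change was 3.83 ± 0.76 (SE; limma-voom adjusted p = 0.0170). Its call was lost without heat stress replicate 2 (limma-voom adjusted p = 0.0505) and without heat stress replicate 3 (limma-voom adjusted p = 0.05055), and its log2 fold change was 2.65 without control replicate 1. On the log2(FPKM + 0.5) scale, where low values shrink, it was 1.86.

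The same libraries of a group were high or low in most of the 5 entries. Control replicate 2 was the highest control in 5 of 5 entries, against 41.2% of all listed genes. Control replicate 1 was the lowest in 4 of 5, the exception being hsc70, against 42.5% of listed genes. In heat stress, replicate 3 was the highest in 4 of 5, against 32.5% of listed genes, and the exception was HSPA4 scarce. The entries are not independent of each other in this, since they come from the same libraries.

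The size of the rise depended on how libraries were scaled. Depths recovered from the ratio of counts to FPKM gave the values above. The other scalings were computed from the listed genes alone. The authors had called all of these changed, 924 higher and 289 lower in heat stress, so these scalings serve as alternatives only. TMM, which takes most listed genes as unchanged, moved the median of all tested genes by -1.48 on the log2 scale. Under TMM the log2 fold change was 4.06 for Hspa4, 2.30 for HSPA4 abundant, 2.36 for HSPA4 scarce, 1.69 for hsc70 and 1.48 for hspa8b. No entry changed direction, but only Hspa4 and HSPA4 abundant passed the limma-voom test with TMM factors, 2 of 5, where 7.99% of tested genes rose. The limma-voom adjusted p of hspa8b was then 0.217.

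**Figure D2:**
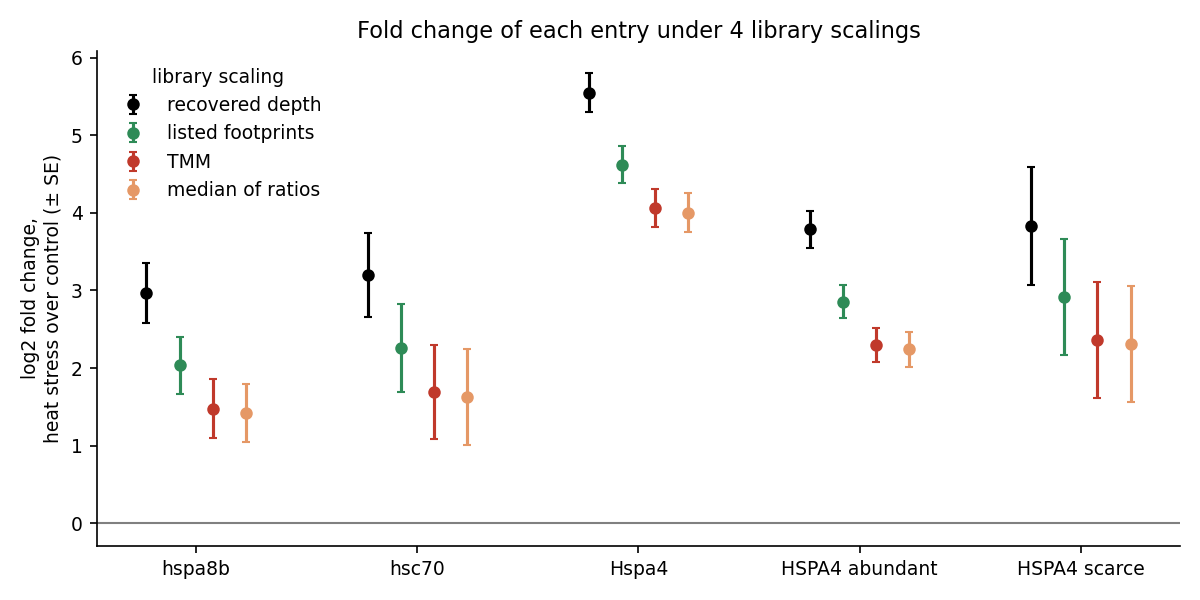
Log2 fold change of heat stress over control with its SE, for the 5 entries under 4 ways of scaling libraries (recovered depth, summed listed footprints, TMM, median of ratios). All 20 values lie above 0, and each entry lies lower under TMM than under recovered depth (4.06 against 5.55 for Hspa4).

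Ratios between entries of the same library do not depend on library scaling. Only the summed ratio given further below was planned, and the ratios of single pairs were not. Hspa4 had the largest log2 fold change of the entries and hspa8b the smallest. A shift in their ratio follows from those values, so its p-value is descriptive only. Hspa4 over hspa8b, as a ratio of FPKM, was 1.80, 1.57 and 1.84 in heat stress replicates 1, 2 and 3, against 0.457, 0.242 and 0.218 in control replicates 1, 2 and 3. Every heat stress library thus had a higher footprint density on Hspa4 than on hspa8b, and every control library the reverse. The log2 ratio was higher in heat stress by 2.58, a 5.99-fold shift (p = 0.1 by a two-sided exact permutation test over libraries, which cannot give a lower p with 3 against 3). Without control replicate 1 the difference was 2.91.

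The pair of hspa4 entries also changed places. HSPA4 abundant over Hspa4 was 0.316, 0.363 and 0.338 in heat stress libraries and 1.19, 1.10 and 1.15 in control libraries. In control the pair was nearly level, with HSPA4 abundant slightly ahead in 3 of 3 libraries, and in heat stress Hspa4 was ahead in 3 of 3. The ratio averaged 0.339 ± 0.0236 in heat stress and 1.15 ± 0.0448 in control (SD, n = 3 each). The log2 difference was -1.76 (two-sided exact permutation test, p = 0.1), many times the SD of the log2 ratio within a group, which was 0.10 in heat stress and 0.06 in control. Leaving out control replicate 1 gave -1.74.

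HSPA4 abundant over hspa8b was 0.568, 0.571 and 0.620 in heat stress, against 0.543, 0.266 and 0.252 in control. The groups did not overlap, but control replicate 1, the library with little hspa8b, came close to the heat stress values. The difference of the log2 ratio was 0.82 (exact permutation test p = 0.1), and 1.18 without control replicate 1. Between hsc70 and hspa8b the ratio did not separate the groups, at 0.0316, 0.0132 and 0.0352 in heat stress and 0.0406, 0.0210 and 0.0107 in control (exact permutation test p = 0.8). In all, 6 of 10 pairs could be compared in every library. The groups did not overlap in 4, Hspa4 over hspa8b, HSPA4 abundant over hspa8b, Hspa4 over hsc70 and HSPA4 abundant over Hspa4. Hspa4 is in most of these pairs, so they are not separate results. How often other pairs of listed genes separate the groups was not tested. Benjamini-Hochberg adjustment over the 6 pairs gave 0.15 for these 4 (exact permutation tests), so none passes 0.05, which 3 against 3 libraries cannot reach. The other 4 pairs involve HSPA4 scarce, which was listed at 0 in control replicate 1.

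**Figure D3:**
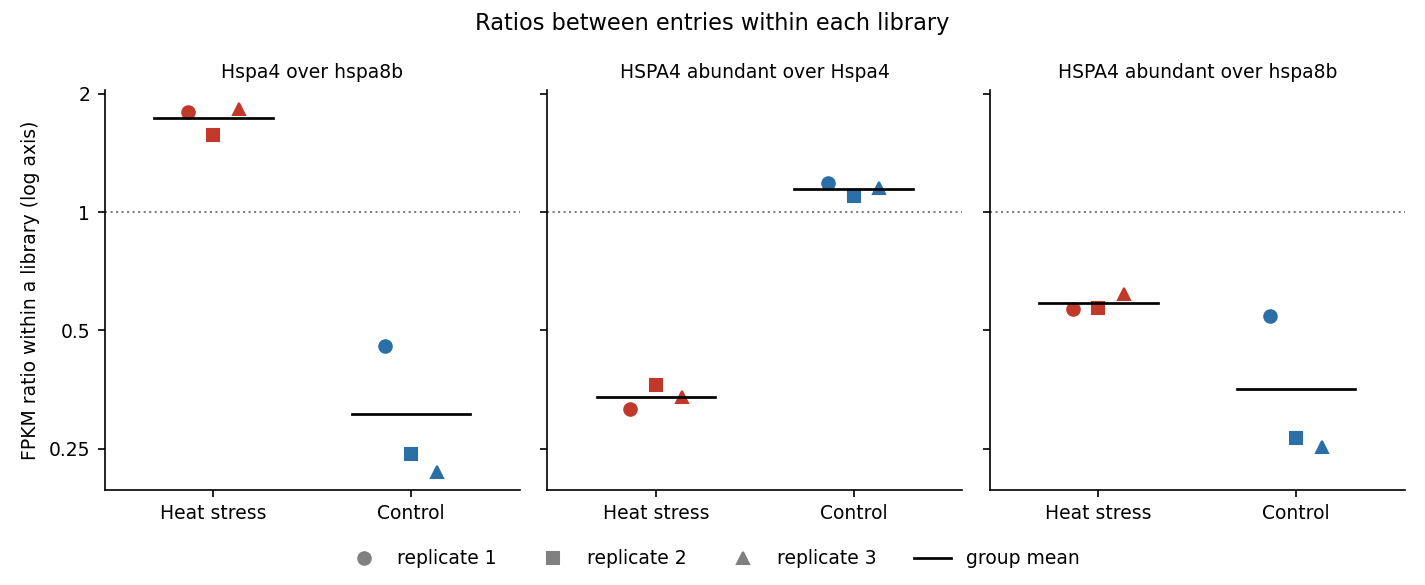
Ratio of FPKM between entries within a library (log axis), with heat stress in red and control in blue, 1 symbol per replicate, the group mean as a bar and a dotted line at equal density. Hspa4 over hspa8b lies above 1 in heat stress and below 1 in control, and HSPA4 abundant over Hspa4 does the opposite. Control replicate 1 (0.543) nearly meets the heat stress values in the last panel. Pairs whose groups overlapped, hsc70 over hspa8b and HSPA4 abundant over hsc70, are not shown.

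Summed over entries, hspa4 footprints were 2.97, 2.75 and 3.07 times the summed hspa8b and hsc70 footprints in heat stress libraries, against 1.24, 0.649 and 0.605 times in control libraries. The difference of the log2 ratio was 1.89, or 3.72-fold (exact permutation test, two-sided, p = 0.1). These are ratios of counts, which also carry gene length. The length behind the authors' FPKM, taken relative to hspa8b from counts and FPKM, was 1.0005 for hsc70, 1.29 for Hspa4, 1.29 for HSPA4 abundant and 1.31 ± 0.0118 for HSPA4 scarce (SD over the 3 heat stress libraries). The 3 hspa4 entries thus share a length close to each other, and so do hspa8b and hsc70. The file's KEGG column gives the orthology number K03283 to hspa8b and hsc70, which covers both the cognate and the heat-inducible cytosolic Hsp70 genes, and K09489 to the 3 hspa4 entries.

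In all, 11 listed entries carry K03283. Their summed density was 4451, 4225 and 5911 FPKM in heat stress libraries and 83.3, 190 and 175 FPKM in control libraries. The gene hspa8b, the highest of the 11 in each control library, made up 10.6%, 11.5% and 9.72% of this sum in heat stress, against 37.3%, 53.9% and 49.6% in control. Its share was therefore lower in heat stress in all libraries, although its own level rose (exact permutation test, two-sided, p = 0.1). The sum holds only entries that the authors had called changed in this contrast, so any other Hsp70 copies are missing from it. Both the shares and the fall of the hspa8b share are thus partly fixed by the listing, and the p-value is descriptive only. A lower share was not particular to hspa8b. The mean share of hspa8 was 2.62% in heat stress and 32.5% in control, without overlap. For hsc71 it was 7.18% against 11.1%, and for hsc70 0.277% against 1.06%, also without overlap. The inducible Hsp70 genes hspa1b, hsp70, hsp70a and hsp70b, with 5 entries, made up 79.3% ± 0.506 in heat stress and 8.42% ± 6.74 in control (SD, n = 3 each). Their share in control replicate 1 was 16.2%, against 5.07% and 4.02% in control replicates 2 and 3. Some of these inducible entries were listed at 0 in single control libraries, and whether footprints of similar copies were moved between entries in counting was not tested.

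Another cognate gene, hspa8, moved less than hspa8b. It stood at 129, 119 and 127 FPKM in heat stress, against 28.9, 53.8 and 60.2 FPKM in control, with a log2 fold change of 1.46 ± 0.27 (SE; limma-voom adjusted p = 0.0130). Under TMM the log2 fold change of hspa8 was -0.03 and its call was lost (limma-voom adjusted p = 1), so its rise depended on the scaling. Within a library, hspa8b over hspa8 was 3.68, 4.06 and 4.52 in heat stress and 1.07, 1.90 and 1.44 in control. The ratio did not overlap between groups (exact permutation test, two-sided, p = 0.1), and its log2 difference was 1.51. The most abundant of 3 entries named hsc71, a further cognate name, had 353 ± 132 FPKM in heat stress and 16.9 ± 7.20 FPKM in control (SD, n = 3 each), a log2 fold change of 4.45 ± 0.37 (SE). RefSeq's trout table (assembly USDA_OmykA_1.1) holds hspa8b and hsc70 as 1 gene each and lists hsc71 as a synonym of hspa8. No gene in it has hspa4 as its own symbol, in upper or lower case. The symbols alone thus do not fix which copy is which, for the hspa4 entries included.

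Among Hsp110-type genes, the 2 listed HSPA4L entries (orthology number K09485), relatives of HSPA4, were both scarce. The first had 4.04, 2.93 and 4.13 FPKM in heat stress and was listed at 0 in every control library. The second had 3.12, 3.18 and 4.03 FPKM in heat stress and 0.17, 0.37 and 0.26 FPKM in control. The hspa4 and HSPA4L entries together summed to 1130, 1048 and 1421 FPKM in heat stress, and Hspa4 alone gave 75.4%, 72.8% and 74.2% of that. In control they summed to 31.2, 52.8 and 41.2 FPKM, of which Hspa4 gave 45.4%, 46.9% and 46.0%. The summed Hsp110-type density per summed K03283 density was 0.254, 0.248 and 0.240 in heat stress libraries, and 0.375, 0.278 and 0.236 in control libraries. The groups overlapped in this ratio, at 0.247 ± 0.00672 in heat stress and 0.296 ± 0.0714 in control (SD, n = 3 each; exact permutation test, two-sided, p = 0.4). Each sum was far higher in heat stress than in control without overlap, and their ratio was not. Entries outside the authors' selection are in neither sum.

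**Figure D4:**
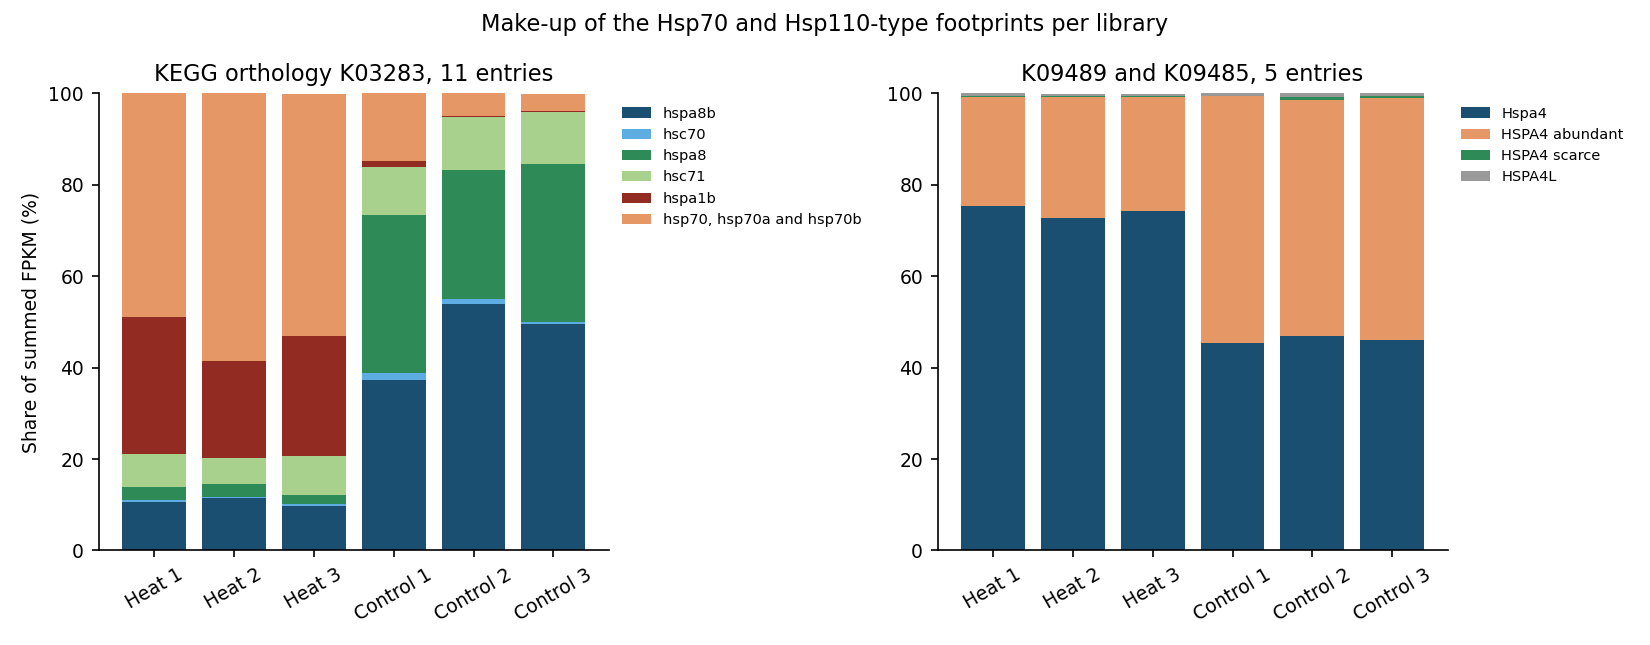
Share of summed FPKM (per cent) held by each symbol in each library, heat stress libraries to the left. Shown are the 11 listed entries with orthology number K03283 and the 5 listed entries with K09489 or K09485. The hspa8b share is 9.72% to 11.5% in heat stress and 37.3% to 53.9% in control, and the Hspa4 share is 72.8% to 75.4% in heat stress and 45.4% to 46.9% in control.

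Partner genes of the Hsp70 cycle were counted from lists of symbols, matched only within the 1213 listed genes. The authors had called all of these changed, so partner genes that did not change cannot appear. The counts are thus partly fixed by the listing and, for entries scarce in control, by the footprint filter. By the same rule 71.3% of all tested genes rose. Of 18 other Hsp70 and Hsp110 family entries, all 18 rose by limma-voom, with a median log2 fold change of 4.21. The most abundant was hspa5 (BiP, the Hsp70 of the endoplasmic reticulum, with 2 entries), at 5219 ± 844 FPKM in heat stress and 362 ± 28.9 FPKM in control (SD, n = 3 each). Of 20 J-domain entries, all 20 rose, with a median of 2.74, and the most abundant was dnaja, at 1252 ± 330 FPKM in heat stress and 8.10 ± 1.67 FPKM in control. All 5 entries on the list of other nucleotide exchange factors rose, with a median of 4.31. They include Bag2, a cytosolic exchange factor with 2 entries. The more abundant of these 2 stood at 108 ± 28.7 FPKM in heat stress and 1.73 ± 0.601 FPKM in control. Also on the list was SIL1, an exchange factor of BiP, at 404 ± 106 FPKM in heat stress and 19.8 ± 1.80 FPKM in control. At 890 FPKM, Hspa4 was above each of the 5 entries on this list in heat stress. The hyou1 entries (log2 fold change 3.85 and 2.67) were counted with the Hsp70 and Hsp110 family instead, and their densities were not compared.

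Of 12 entries of adaptors and co-chaperones that link Hsp70 and Hsp90, 11 rose and 1 did not pass, with a median of 3.17. Among them ahsa1a, which stimulates the ATPase of Hsp90, stood at 409 ± 18.8 FPKM in heat stress and 12.4 ± 2.84 FPKM in control. The 4 entries that the list for cytosolic Hsp90 matched, named hsp90a.1 and hsp90ab1, rose. The list missed hsp90bb, whose log2 fold change was 2.36 ± 0.25 (SE). The small heat shock protein list matched 5 hsp30 entries, which rose, and hspb11, which was not tested. Of the hsp30 entries 2 had the same counts in every library. For comparison, 71.3% of all tested genes rose. Under TMM fewer passed, 14 of 18 family entries, 8 of 20 J-domain entries, 4 of 5 exchange factors and 5 of 12 adaptors. So did 3 of the 4 matched Hsp90 entries and 3 of the 5 hsp30 entries. With TMM factors, 7.99% of all tested genes rose. Up to 3 entries per list then had a log2 fold change below 0, none past the test.

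The genes whose profile over the 6 libraries was most like that of a member were found by the root mean square distance of centred log2(FPKM + 0.5) values. Candidates were the 172 listed entries with a symbol and at least 50 FPKM on average over the 6 libraries, less the member itself where it was among them. Every neighbour named below had a control mean under 50 FPKM, so it became a candidate only through its heat stress level. Likeness to members that rose is thus partly fixed by this cut. Nearest to Hspa4 were ahsa1a at a distance of 0.273, dnajb1b, an Hsp40 gene, at 0.324, Bag2 at 0.363 and dnajc3a, a co-chaperone of the endoplasmic reticulum, at 0.410. Nearest to hspa8b were an entry of FKBP4, an immunophilin that binds Hsp90, at 0.325, GBP1, a guanylate-binding protein gene, at 0.332, tbcb, a tubulin folding cofactor gene, at 0.343 and PTGES3, the Hsp90 co-chaperone p23, at 0.427. Nearest to hsc70 were cdc37, which brings kinases to Hsp90, at 0.330, GBP1 at 0.444, CCT5, a subunit of the cytosolic chaperonin, at 0.465 and the same FKBP4 entry at 0.467. These distances rest on 6 libraries in 2 groups, so they mostly compare the size of the rise.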

How the data were processed

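Ribosome footprints of rainbow trout liver were sequenced in 6 libraries. Per the labels' protocols, an RNA clean-up kit and a small RNA library kit were used, and the labels call the molecule nuclear RNA. The submitters' processing notes name Bowtie2 and edgeR, without role or version. Which genome build, annotation and read counter served is not given in the sources used here. The deposited table, fixed-width with 8 characters per cell, gives for each library a whole-number footprint count and an FPKM, and for each gene the authors' mean FPKM per group, log2 fold change, p-value and FDR. Gene identifiers are cut to 4 distinct values, so no identifier, coordinate or sequence is given, and 12 p-values lost a digit of the exponent.

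Relative depth came from counts divided by FPKM over the 94 genes that reached 200 footprints and 10 FPKM in every library (SD at most 1.24%). With control replicate 1 set to 100%, heat stress replicates 1, 2 and 3 had 72.2%, 41.4% and 81.9%, and control replicates 2 and 3 had 76.4% and 65.5%. These depths were the library sizes of the limma-voom fit (limma version 3.58.1 under R 4.3.3). A gene was tested if, scaled to the mean depth, 3 libraries had 10 footprints or more and its total was at least 15. This held for 1152 genes, all 5 members included. HSPA4 scarce met it only through the heat stress libraries. Benjamini-Hochberg adjustment ran over about 29300 genes, the number the authors tested as estimated from their p-value, FDR and rank. Levels are compared between genes as FPKM. Single ratios were tested by exact permutation over libraries. The fit was tested on simulated counts in which most genes were unchanged and as many rose as fell. The listed genes differ from that setting, so the test does not cover it. Replicates of a group differed by 15.7 to 34.4 in chi-square per degree of freedom, so none was a copy. Exact tests used scipy 1.17.1 and figures matplotlib 3.10.9, under Python 3.11.15.

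The members and lists were chosen with earlier results of these data known. All members are named. From each partner list the 2 entries with the highest mean FPKM could be named, and hspa8, hsc71 and HSPA4L, which share an orthology number with a member or its relative, were named after their values were seen. The ratios of single pairs were not planned, unlike the summed ratio of hspa4 to hspa8b and hsc70. Alternatives covered scaling, filters, pseudocounts, the replicate number and each library left out.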

Additional observations from a re-analysis of the deposited data

How the results depend on the processing

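The log2 fold changes of the 5 members kept their direction under the alternatives run. Under TMM hspa8 and 7 other partner entries had a log2 fold change below 0, none past the test. With TMM factors 2 of 5 members and 358 of all listed genes passed, against 5 and 1008, and hspa8b (log2 fold change 1.48), hsc70 (1.69) and HSPA4 scarce (2.36) lost their calls. With median-of-ratios factors 2 members and 354 genes passed, with 1.42, 1.62 and 2.30 for those 3 entries. With summed listed footprints as library size 3 members and 469 genes passed, and hsc70 (2.26) and HSPA4 scarce (2.91) lost their calls. TMM without control replicate 1, added after the data were seen, also left 2 members. Leaving out each library in turn left 4 to 5 members and 562 to 971 genes, with the lowest count without control replicate 1, and 625 and 662 genes without heat stress replicate 3 and control replicate 3. The log2 fold change then ranged from 2.43 to 3.29 for hspa8b, 2.86 to 3.62 for hsc70, 5.34 to 5.75 for Hspa4, 3.61 to 3.96 for HSPA4 abundant and 2.65 to 4.71 for HSPA4 scarce. The calls lost were hsc70 without control replicate 1 and HSPA4 scarce without heat stress replicate 2 or 3. The causes of these shifts were not tested. The filters, pseudocounts and adjustment over the listed genes alone changed no call, though HSPA4 scarce was not tested with at least 50 footprints. The log2 difference in the summed hspa4 to hspa8b and hsc70 ratio was 1.89, and 1.70 to 2.22 with each library left out. With only Hspa4 over hspa8b, the most abundant entry on each side in heat stress, it was 2.58. That alternative leaves out hsc70 and repeats the single pair described above, on counts. HSPA4 abundant, which was ahead of Hspa4 in control, gave 0.82 over hspa8b as FPKM. Deviations of same-numbered libraries from their group means had correlations of -0.0795, -0.101 and 0.000884. Heat stress replicate 1 with control replicate 2 gave 0.123. With 3 libraries per group, this check cannot decide whether the numbers pair libraries. With the replicate block 5 members and 1102 genes passed. Counting error limits HSPA4 scarce and, in control, hsc70.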
